A study of Trichoderma reesei with 9 samples.

Results

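The comparison described here set 3 cultures of *Trichoderma reesei* grown on low melanin necromass against 3 cultures grown on glucose, across all 9849 genes of the count table. These 6 libraries are part of a series of 9, in which 3 further cultures grew on high melanin necromass. The necromass was dead mycelium of the ascomycete *Hyaloscypha bicolor*, supplied at 0.45% (w/v) in Highley's medium, whereas glucose was supplied at 1% (w/v) in the same medium. All cultures were of strain RUT-C30, whose *cre1* gene is truncated, and all were sampled after 7 days in liquid culture, so the comparison has 1 strain and 1 time. The study describes the 3 cultures of each treatment as independent biological replicates. The p values below rest on the spread between cultures of the same substrate, pooled over all 9 libraries and partly shared across genes. They therefore do not measure the spread of the 6 cultures compared here alone. Growth phase was not measured in these files, and substrate, amount of substrate and growth phase cannot be told apart.

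*T. reesei* is a saprotrophic mould that secretes enzymes which break cellulose and hemicellulose into sugars, and then takes those sugars up through membrane transporters. In most strains glucose represses many of these genes through the regulator Cre1, which RUT-C30 carries in truncated form. Dead fungal mycelium offers other polymers, chiefly glucans, chitin, mannans and protein, together with melanin in the walls of *H. bicolor*. The genes below are therefore ordered by role: the most abundant transcripts, the largest changes, enzymes for carbohydrates outside the fungal wall, transport, biosynthesis and energy metabolism, and then regulation and surface functions. Genes are given by protein ID, the number that ends each locus tag, with the enzyme or domain family that the study's annotation assigns. A family says what its known members do and not what each protein does.

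The total count was 18074631, 22327638 and 20126789 in the low melanin necromass libraries, against 20105431, 19602387 and 20541445 in the glucose libraries. Levels are given as CPM, the count per 1000000 counts of the library, after TMM normalization, a scaling that limits the influence of a few very abundant transcripts. A gene was called up when its log2 fold change was 2 or more, and called down when it was −2 or less, with a Benjamini-Hochberg adjusted p under 0.05 in edgeR's quasi-likelihood test. Glucose replicate 1 stood apart from its group, with a Pearson correlation of log2 CPM across genes of 0.958 and 0.954 with the other glucose libraries, against 0.991 between those. The low melanin necromass libraries correlated at 0.991 to 0.995 with each other. The median SD of a gene's log2(CPM + 0.5) was 0.115 on low melanin necromass and 0.251 on glucose. Glucose replicate 1 was the lowest glucose library in 478 of the 1120 genes called up and the highest in 314 of the 669 called down. Values without glucose replicate 1 are given wherever they change a call or move a printed log2 fold change by more than 1.5 times in fold. No such value exists for protein IDs 77832, 36469, 60349, 71986, 6730, 12137, 65695, 134731, 91734 and 73746. These had too few libraries with 10 counts to be tested once a glucose library was left out.

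Very abundant transcripts of one substrate were rarely at zero on the other. The 10 lowest ratios were taken among transcripts that reached 1000 CPM on low melanin necromass, and for these the glucose libraries 1 to 3 held 0.334%, 0.328% and 0.222% of the low melanin level, 0.295% on average. There were 77 such transcripts, and the 10 ratios lay between 0.272% and 0.306%. In the opposite direction, for the 10 genes with the lowest ratios of 541 with at least 300 CPM on glucose, the low melanin necromass libraries held 0.48%, 0.430% and 0.443% of the glucose level, with ratios of 0.318% to 0.823%. The mean of such a share was 0.295% or 0.451%, by direction. A gene whose lower level is at most 2 times that mean, 0 counts included, is described below as lying near the lowest ratio. That was so for 60 genes called up and 23 called down, and what sets this ratio was not tested. Of the 77 transcripts above 15 lay near it, and of the 541 genes 10. The 10 genes that set each share are among these, so the counts follow partly from how the limit was drawn. The limit of 2 times corresponds to a log2 fold change of 7.41 for genes that rose and of −6.79 for genes that fell. Fold changes beyond these values are of this kind, among them all 10 of the largest increases and all 10 of the largest decreases. Protein IDs 130024, 93336, 53873 and 49318 are included at 0 counts on glucose, and protein ID 60349 at 0 counts on low melanin necromass. The ratios of these weak genes were not measured.

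Of the 9312 genes tested, 1120 were called up on low melanin necromass (12.0%) and 669 were called down (7.18%), together 1789 genes or 19.2%. At any fold change 6925 genes had an edgeR adjusted p under 0.05, or 74.4%, of which 3482 were higher and 3443 lower on low melanin necromass. The 3 libraries of one substrate lay outside the range of the other for 3640 genes that were higher on low melanin necromass (39.1%) and for 3404 that were lower (36.6%). Most genes therefore differed between the substrates, by small amounts in the main, and the median log2 fold change of all genes was 0.01. When glucose replicate 1 was left out, 1052 of the 1120 genes called up kept their call (93.9%), and so did 547 of the 669 called down (81.8%). Of the genes called down, 50 were no longer tested because too few libraries remained.

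**Figure D1:**
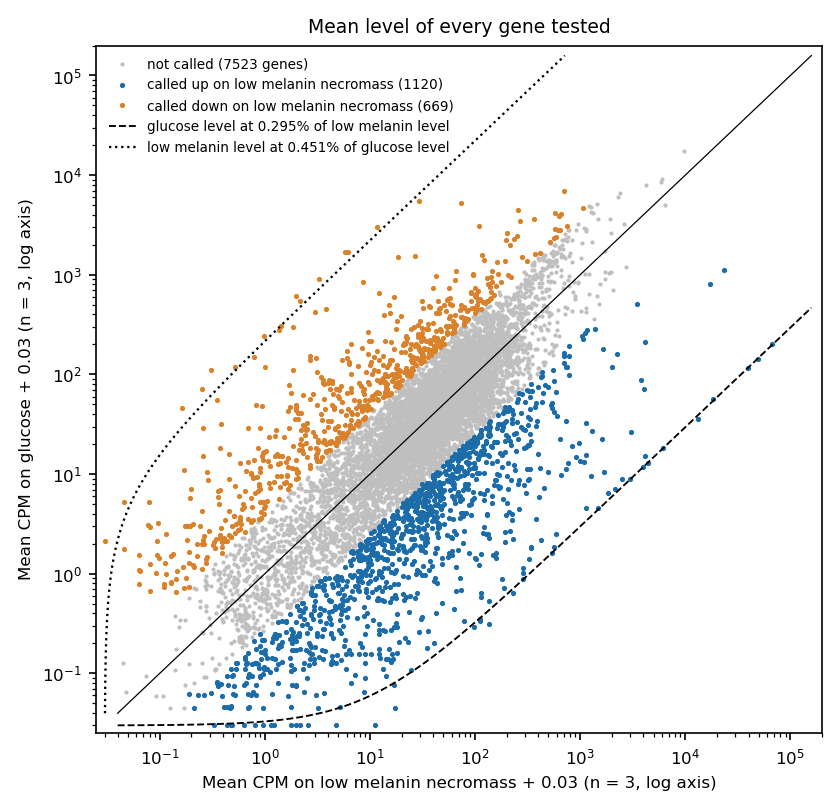
Mean level of each of the 9312 genes tested, with the mean CPM over the 3 low melanin necromass libraries on the horizontal axis and the mean over the 3 glucose libraries on the vertical axis, both as log axes after adding 0.03. Blue points are the 1120 genes called up on low melanin necromass and orange points the 669 called down, and the solid line marks equal levels. The broken and dotted lines mark the ratios of 0.295% and 0.451%, the mean shares of the 10 abundant transcripts with the lowest ratios in each direction. The lines were set by the lowest ratios, so how many abundant transcripts lie away from them is a description only.

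Without glucose replicate 1 only 1 called gene turned direction. Protein ID 38496, which has no entry in the annotation list and was named after its values were seen, had 0.999, 0.358 and 0.775 CPM on low melanin necromass, against 30.3, 0.104 and 0.197 CPM on glucose. Its log2 fold change was −3.86 with all libraries and 2.15 without glucose replicate 1, so a single library set its direction.

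Transcripts of cellulose-degrading enzymes dominated the low melanin necromass libraries. The 10 genes with the highest mean share took 24.3%, 27.6% and 25% of the counts on low melanin necromass, against 0.770%, 3.13% and 3.57% on glucose. These are shares of counts, to which a longer transcript contributes more, and transcript lengths were not used. Of these 10 genes, 6 belong to families that act on cellulose: GH7, GH6, AA9, GH5_5, GH12 and GH45.

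Protein ID 125125, of family GH7 with a cellulose-binding CBM1 module, was the most abundant transcript of the low melanin necromass libraries, with 58536, 79181 and 63601 CPM on low melanin necromass, against 227, 226 and 154 CPM on glucose. GH7 holds cellobiohydrolases and endoglucanases, which cut cellulose chains, and this gene alone took 6.16%, 7.93% and 6.53% of all counts on low melanin necromass, against 0.0254%, 0.0221% and 0.0152% on glucose. Its log2 fold change was 8.37 (SE 0.38, edgeR adjusted p = 9.94e-08). Protein ID 122470, of the cellobiohydrolase family GH6, had 43264, 58746 and 45261 CPM on low melanin necromass, against 166, 155 and 103 CPM on glucose. Protein ID 122518, of the lytic polysaccharide monooxygenase family AA9, had 35634, 43056 and 39188 CPM on low melanin necromass, against 132, 127 and 87.4 CPM on glucose. Both changes had nearly the size of that of the GH7 gene, with log2 fold changes of 8.44 and 8.41, and in no gene of this group did the substrates overlap.

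The endoglucanase families were somewhat less abundant. Protein ID 72489 of GH5_5 averaged 18327 ± 2365 CPM on low melanin necromass and 56.1 ± 12.1 CPM on glucose, protein ID 124438 of GH12 averaged 13145 ± 1076 CPM on low melanin necromass and 35.8 ± 7.02 CPM on glucose and protein ID 25940 of GH45 averaged 6199 ± 1242 CPM on low melanin necromass and 18.1 ± 3.88 CPM on glucose (SD, n = 3 each). The log2 fold changes of these endoglucanase genes were 8.35, 8.52 and 8.42 (edgeR adjusted p = 3.86e-08, 1.76e-08 and 2.69e-08). The glucose level of each of the 6 cellulose family genes lay near the lowest ratio, and no order among them is read from the fold changes.

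Of the other abundant transcripts on low melanin necromass, protein ID 109243 encodes a transporter of the sugar porter family and had 23027, 25976 and 21613 CPM on low melanin necromass, against 147, 1491 and 1727 CPM on glucose. It took more counts on low melanin necromass than any transcript but those of the GH7, GH6 and AA9 genes, and glucose replicate 1 lay far below the other glucose libraries. The log2 fold change was 4.39 (SE 0.75, edgeR adjusted p = 0.000469), and 3.86 without glucose replicate 1. Protein ID 124811, annotated with CXCXC repeats, had 17842, 15741 and 17594 CPM on low melanin necromass, against 51.6, 1470.1 and 901 CPM on glucose. Its log2 fold change was 4.4 (SE 0.92, edgeR adjusted p = 0.00166), with 3.84 without glucose replicate 1 and 5.15 without glucose replicate 2. Protein IDs 135214 and 123565, which have no entry in the annotation list, were abundant on both substrates. They had log2 fold changes of −0.84 and 0.37, were not called, and had overlapping groups, and that of protein ID 123565 was −0.17 without glucose replicate 1.

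**Figure D2:**
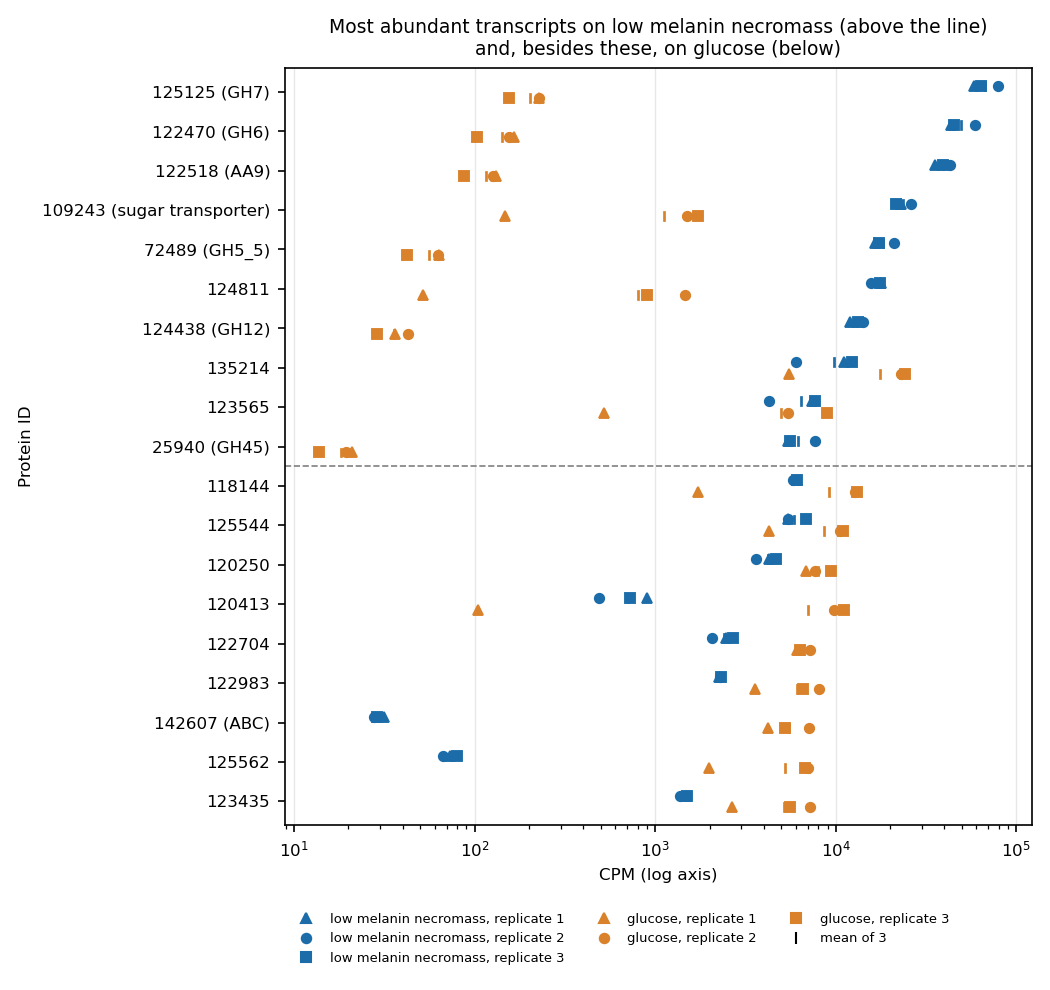
CPM (log axis) in each of the 6 libraries for the 10 genes with the highest mean share on low melanin necromass, above the dashed line, and the 9 further genes among the 10 highest on glucose, below it. Blue symbols are low melanin necromass and orange symbols glucose, symbol shapes give the replicate and short bars the means. The 6 cellulose family genes lie far apart by substrate, whereas in 135214 and 118144 the libraries overlap and glucose replicate 1 (triangles) is often the lowest glucose library.

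Abundance was spread over more transcripts on glucose. The 10 genes with the highest mean share on glucose took 3.58%, 2.72% and 3.83% of counts on low melanin necromass, against 4.13%, 9.79% and 9.80% on glucose, where replicate 1 was the lowest. Only 1 gene, protein ID 135214, was in both lists of 10, and the lists of the 100 most abundant transcripts shared 30 genes, or 30% of each. Of the 100 most abundant on low melanin necromass 44 were called up and 1 was called down, whereas 33 of the 100 most abundant on glucose were called down, beside 12.0% up and 7.18% down of all genes tested. Choosing genes by their level on one substrate favours calls in that direction, so these counts are a description.

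Of the 10 top transcripts on glucose, 7 were not called and 3 were called down. Protein IDs 118144 and 125544 were not called, with log2 fold changes of −0.62 and −0.55 and overlapping groups. Protein IDs 120250, 122704, 122983 and 123435 were lower on low melanin necromass in every library, with log2 fold changes of −0.92, −1.44, −1.41 and −1.82, which missed the fold threshold. Of these, 123435 reached −2.14 without glucose replicate 1 and was then called. Of these 6 genes, 5 have no entry in the annotation list and protein ID 123435 is listed without annotation.

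The 3 that were called were an ABC transporter and genes without annotation. Protein ID 142607, of the pleiotropic drug resistance type of ABC transporters, which pump compounds out of the cell, had 31.3, 27.7 and 28.8 CPM on low melanin necromass, against 4188, 7095 and 5208 CPM on glucose. Its log2 fold change was −7.55 (SE 0.33, edgeR adjusted p = 8.1e-08), and its low melanin level lay near the lowest ratio. Protein ID 125562, without annotation, had 73.1, 67.1 and 80.3 CPM on low melanin necromass, against 1984, 7035 and 6720.3 CPM on glucose, a log2 fold change of −6.16 (SE 0.52, edgeR adjusted p = 3.82e-06). Protein ID 120413, also without annotation, had 900.3, 489 and 728 CPM on low melanin necromass, against 104, 9724 and 11133 CPM on glucose, so glucose replicate 1 lay below all low melanin necromass libraries. It was called at a log2 fold change of −3.31 (SE 1.15, edgeR adjusted p = 0.0251), the value without glucose replicate 1 was −3.89, and the call was lost when any of the other 5 libraries was left out, with values of −3.52 to −2.81.

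The 10 largest increases and the 10 largest decreases were chosen among called genes whose groups did not overlap. Every library of the higher group also had to hold at least 10 counts. The largest increases on low melanin necromass included genes with no count at all on glucose. Protein ID 130024, a chitinase family GH18 gene with chitin-binding CBM18 and CBM50 modules, had 8.15, 10.4 and 15.1 CPM on low melanin necromass and 0 counts in each glucose library, which is at least 76.9-fold higher against a floor of 3 counts per library. The floor covers counting error only. Protein ID 93336, which encodes a HET domain known from fungal heterokaryon incompatibility, had 4.57, 5.46 and 4.12 CPM on low melanin necromass and 0 counts on glucose, at least 32.3-fold higher. Protein IDs 53873 and 49318 have no domain annotation, were also at 0 counts in each glucose library, and were at least 17.3-fold and 14.5-fold higher on low melanin necromass.

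Amino acid permeases were among the largest increases of moderately abundant transcripts. Protein ID 72410 had 216, 231 and 246 CPM on low melanin necromass, against 0.533, 0.575 and 0.738 CPM on glucose, and protein ID 139450 had 93.5, 91.7 and 108 CPM on low melanin necromass, against 0.178, 0.157 and 0.443 CPM on glucose. In each the libraries of a substrate lay close together, and the log2 fold changes were 8.54 and 8.53 (edgeR adjusted p = 1.27e-09 and 1.09e-08), that of protein ID 139450 being 9.13 without glucose replicate 3. Protein ID 45640, of an ATPase family with an AAA domain, had 133, 146 and 129 CPM on low melanin necromass, against 0.133, 0.366 and 0.345 CPM on glucose and a log2 fold change of 8.92 (SE 0.21, edgeR adjusted p = 5.37e-09). Protein ID 5086, without domain annotation, had 106, 125 and 106 CPM on low melanin necromass, against 0.311, 0.418 and 0.197 CPM on glucose and a log2 fold change of 8.49 (SE 0.38, edgeR adjusted p = 9.45e-08).

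Of the 10 largest decreases, 7 had a domain annotation. Protein ID 77832, a cytochrome P450 monooxygenase, had 0.263, 0.224 and 0.339 CPM on low melanin necromass, against 65.2, 160.4 and 105 CPM on glucose. Its log2 fold change was −8.62 (SE 0.42, edgeR adjusted p = 1.49e-07). Protein ID 36469, a member of the monocarboxylate porter family, had 0.0526, 0.224 and 0.387 CPM on low melanin necromass, against 99.6, 75.1 and 41.8 CPM on glucose, a log2 fold change of −8.29 (SE 0.49, edgeR adjusted p = 4.08e-07), or −8.91 without low melanin necromass replicate 3. The groups of both genes lay far apart, but neither gene was tested when any glucose library was left out. Protein ID 116864, of the secreted peptidase family S53, had 5.73, 6.08 and 6.63 CPM on low melanin necromass, against 1095, 2358 and 1607 CPM on glucose and a log2 fold change of −8.1 (SE 0.46, edgeR adjusted p = 3.17e-07).

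In several of the largest decreases glucose replicate 1 was the highest library. Protein ID 104258, of the amino acid transporter family AAAP, had 1.73, 2.33 and 1.79 CPM on low melanin necromass, against 1264, 352 and 224 CPM on glucose. Protein ID 87569, of the AMP-binding enzymes that activate acids and annotated like 4-coumarate-CoA ligase, had 5.73, 5.95 and 5.57 CPM on low melanin necromass, against 3176, 954 and 900.0 CPM on glucose. Protein ID 87440, without domain annotation, had 3.94, 3.0 and 2.71 CPM on low melanin necromass, against 1896, 392 and 452 CPM on glucose. Glucose replicate 1 lay well above the other glucose libraries in each of these genes, and the other glucose libraries were still far above low melanin necromass. Protein ID 87457, annotated as the first enzyme of aromatic amino acid synthesis, had 1.47, 0.671 and 0.726 CPM on low melanin necromass, against 458, 107 and 161 CPM on glucose. The log2 fold changes were −8.29, −8.19, −8.15 and −8.0 (edgeR adjusted p = 2.3e-05, 3.67e-05, 2.43e-05 and 9.44e-06), and −7.2, −7.34, −7.05 and −7.16 without glucose replicate 1. Protein ID 102900, with an iron and 2-oxoglutarate dependent oxygenase domain, changed by −8.02 on the log2 scale.

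At the low end, protein ID 71986 had 0.158, 0.0447 and 0.194 CPM on low melanin necromass, against 132, 4.49 and 2.51 CPM on glucose, so that glucose replicate 1 supplied most of the mean. Its log2 fold change was −8.42 (SE 1.86, edgeR adjusted p = 0.00238), and no value was obtained without glucose replicate 1 because the gene then had too few libraries with 10 counts. Protein ID 60349 had 0 counts in each low melanin necromass library and 1.51, 2.40 and 2.36 CPM on glucose, at least 14.4-fold lower on low melanin necromass.

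**Figure D3:**
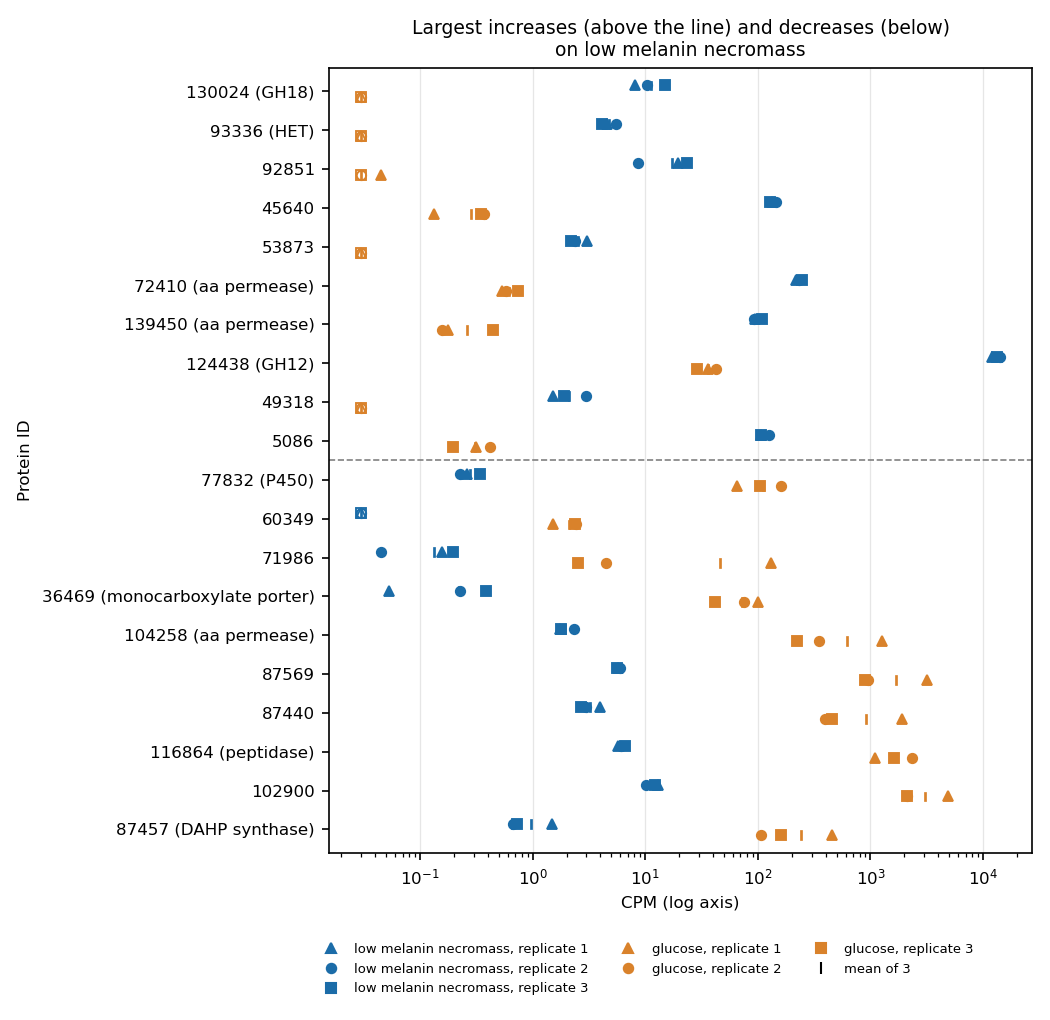
CPM (log axis) in each of the 6 libraries for the 10 largest increases on low melanin necromass, above the dashed line, and the 10 largest decreases, below it. Blue symbols are low melanin necromass and orange symbols glucose, shapes give the replicate, short bars the means, and open symbols at the left edge stand for 0 counts. Protein IDs 71986, 104258, 87569 and 87440 show glucose replicate 1 (triangles) above the other glucose libraries. Genes with overlapping groups were left out by the rule of choice.

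Some genes were near zero on one substrate. Across all genes measured, 400 had at most 3 counts in each glucose library. Of these, 128 passed the filter on low counts, which they could do only through counts on necromass, and 105 were called up (1.13% of genes tested). Because they passed through the group in which they are high, their number is a description and not a test. Most were weakly expressed, with a median of 0.926 CPM on low melanin necromass, and 48 of the 105 reached 1 CPM on average. Of the 105, 45 had no annotation, 30 had annotation outside the classes described below, 7 carried ankyrin repeats, 3 the HET domain and 4 a peptidase tag. Among all 1108 genes of the annotation list that were called up, these numbers were 360, 417, 24, 8 and 38.

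The highest of these gains lay at 24.4 CPM. Protein ID 138500, without domain annotation, had 28.9, 17.6 and 26.7 CPM on low melanin necromass, against 0.133, 0.0522 and 0.0492 CPM on glucose, at least 167-fold higher on low melanin necromass. Protein ID 92851, with a hemerythrin-like domain, had 19.4, 8.68 and 23.4 CPM on low melanin necromass, against 0.0445, 0 and 0 CPM on glucose, at least 117-fold higher. Protein ID 91584, a hydrolase of the HAD superfamily, had 14.7, 17.8 and 18.2 CPM on low melanin necromass, against 0.0889, 0.0522 and 0 CPM on glucose, at least 116-fold higher. In all of these every low melanin necromass library lay far above the glucose libraries, which were at or below the floor. Protein ID 71448, with a protein kinase domain, was at least 97.6-fold higher, and protein IDs 130314 and 87576, without domain annotation, at least 108-fold and 97.2-fold.

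Losses to near zero were counted in the same way. At most 3 counts in each low melanin necromass library were found for 386 genes, of which 34 passed the filter and 27 were called down (0.290% of genes tested). The numbers gained and lost cannot be set against each other, since a gained gene could pass the filter through either necromass, and without the filter they were 134 and 97. The median level of these 27 on glucose was 1.4 CPM, and 16 had no annotation. Protein ID 6730, without annotation, had 8.18, 4.75 and 2.85 CPM on glucose and was at least 36.1-fold lower on low melanin necromass, and protein ID 12137, also without annotation, at least 36-fold. Protein ID 63933, of the subtilisin peptidase family S08, had 0.105, 0.0447 and 0.0484 CPM on low melanin necromass, against 0.356, 4.81 and 4.43 CPM on glucose, so its loss is seen against glucose replicates 2 and 3. Protein ID 134731, of a family of dicarboxylate transporters, was at least 20.2-fold lower, protein ID 65695, without annotation, at least 20.8-fold, and protein ID 90417, with a Myb-type DNA-binding domain, at least 20.5-fold.

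Functions were counted from the study's annotation, which lists 2086 genes. The list holds genes that the study called on low melanin necromass against glucose, together with part of those it called in its other comparisons. Nearly every listed gene is therefore one that differed on at least 1 necromass. The shares of members called cannot be read against the 12.0% and 7.18% of all genes, and the balance of directions within a class is described. Class medians and shares of counts are given as well, but they too rest on genes listed because the study called them. Of the 1789 genes called here 1768 were listed, and 62.6% of all calls were up. Each gene was placed in 1 class by its first fitting tag. Against a null boundary of a log2 fold change of 2 (glmTreat), 23 of 68 counts of members called in a class fell by more than 1.5 times, and the value is given below for the larger classes concerned.

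**Figure D4:**
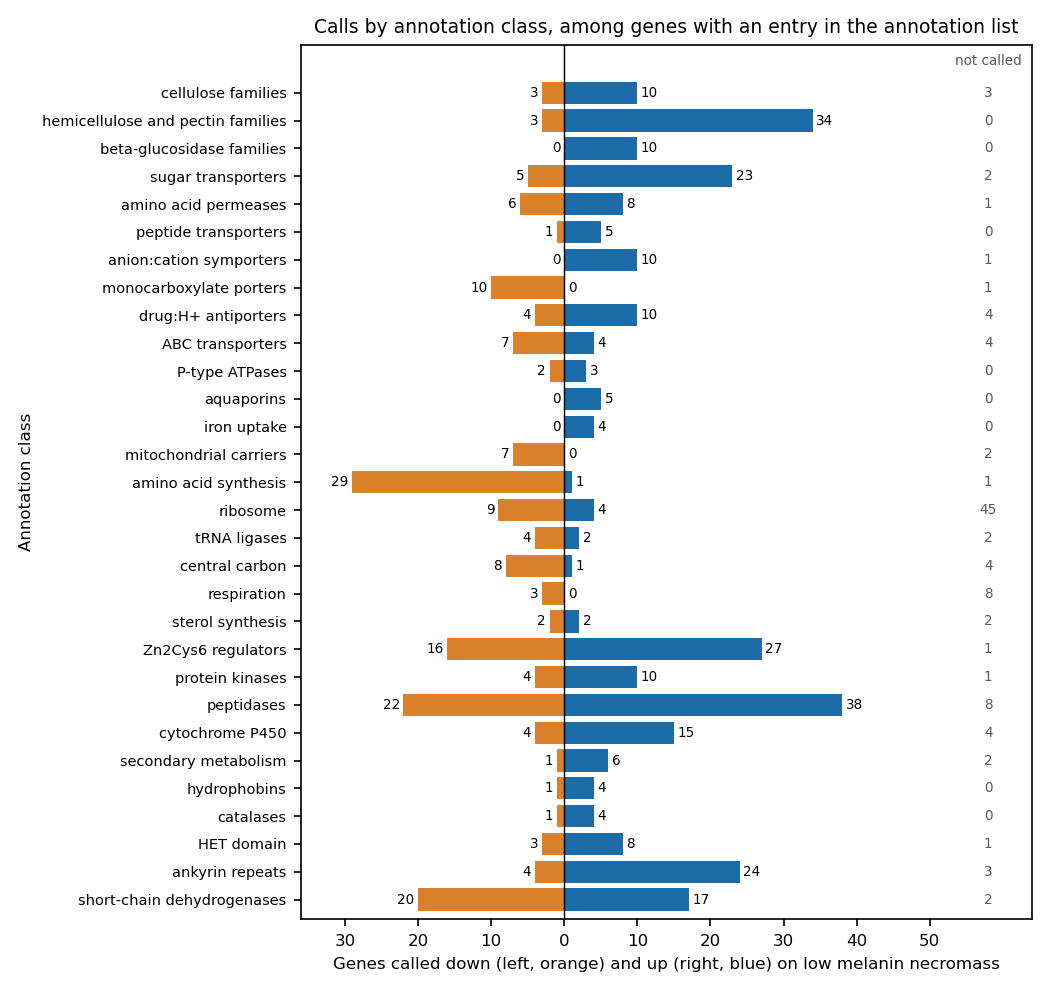
Number of genes called up (blue, to the right) and called down (orange, to the left) on low melanin necromass in 30 annotation classes, with the number of listed members not called in the grey column. Enzymes for hemicellulose and pectin, sugar transporters and anion:cation symporters lie mostly to the right, and amino acid synthesis, monocarboxylate porters and mitochondrial carriers mostly to the left.

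Most listed enzymes for carbohydrates outside the fungal wall rose. Of 37 listed genes of hemicellulose and pectin families 34 rose and 3 fell, with a median log2 fold change of 4.56, and of 10 beta-glucosidase family genes, which split cellobiose to glucose, all 10 rose, with a median of 3.44. Of 16 genes of cellulose families and expansins 10 rose, 3 fell and 3 were not called, with a median of 8.20. Together the members of these 3 classes took 21.9%, 26.8% and 22.7% of counts on low melanin necromass, against 0.458%, 0.681% and 0.655% on glucose. The members of the fungal wall class, given only for scale, took 0.329%, 0.344% and 0.349% on low melanin necromass, against 0.699%, 0.825% and 0.829% on glucose.

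Among the hemicellulases, protein ID 111943, of the xyloglucanase family GH74, had 3050.4, 2802 and 3278 CPM on low melanin necromass, against 32.1, 23.1 and 24.5 CPM on glucose. Protein ID 23616, of the xylanase family GH10, had 2695, 3247 and 3050.0 CPM on low melanin necromass, against 9.87, 9.98 and 6.64 CPM on glucose, and protein ID 124931, of the xylanase family GH11, had 1907, 1782 and 1812 CPM on low melanin necromass, against 7.47, 6.9 and 4.97 CPM on glucose. All of them rose with no overlap between substrates, by 6.84, 8.41 and 8.15 on the log2 scale (edgeR adjusted p = 3.4e-08, 1.34e-08 and 8.63e-09), the xylanase genes lying near the lowest ratio. The 3 that fell were weak on low melanin necromass: protein ID 72252 of the arabinofuranosidase family GH54, at −3.11 with overlapping groups, protein ID 74937 of the rhamnosidase family GH78, at −3.26 and at −3.9 without low melanin necromass replicate 2, and protein ID 91734 of the polygalacturonase family GH28, at −2.63. For protein ID 91734 the value was −2.03 without low melanin necromass replicate 2 and −4.39 without replicate 3, and it was not tested when any glucose library was left out.

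The beta-glucosidase genes differed in how far glucose replicate 1 departed from its group. Protein ID 127115 of GH1 had 4038, 4878 and 3601 CPM on low melanin necromass, against 35.9, 222 and 375 CPM on glucose, a log2 fold change of 4.31 (SE 0.7, edgeR adjusted p = 0.000343), or 5.01 without glucose replicate 3. Protein ID 136547 of GH3 had 2162, 2916 and 2457 CPM on low melanin necromass, against 10.4, 10.3 and 5.81 CPM on glucose, and protein ID 140746 of GH3 had 1282, 1153 and 1371 CPM on low melanin necromass, against 6.89, 11.3 and 10.4 CPM on glucose, with log2 fold changes of 8.15 and 7.06. In the cellulose class the genes that fell were 2 expansin-tagged genes and 1 of GH12. Protein ID 105293, an expansin-tagged gene with a cerato-platanin domain, had 295, 223 and 285 CPM on low melanin necromass, against 1893, 4329 and 4106 CPM on glucose and a log2 fold change of −3.69 (SE 0.32, edgeR adjusted p = 4.62e-06). Protein ID 120407, the other, changed by −3.44, and protein ID 97721 of GH12 by −3.04, opposite to the GH12 gene 124438.

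Of 35 further carbohydrate-active genes 20 rose, 10 fell and 5 were not called. Protein ID 114133, of the oxidoreductase family AA3_3, which holds alcohol oxidases, had 4459, 4867 and 4023 CPM on low melanin necromass, against 13.7, 14.6 and 10.2 CPM on glucose, and its log2 fold change was 8.43 (SE 0.24, edgeR adjusted p = 1.12e-08), near the lowest ratio. Glycosyltransferases, which build sugar chains, moved both ways. Protein ID 124397 of GT32 averaged 583 ± 165 CPM on low melanin necromass and 2.47 ± 0.696 CPM on glucose and rose by 7.88, and protein ID 108458 of the same family averaged 1.41 ± 0.40 CPM on low melanin necromass and 304 ± 50.1 CPM on glucose and fell to near the lowest ratio, at −7.74. Protein ID 82061 of GT2 rose by 2.09 on the log2 scale, or by 1.75 without glucose replicate 1, when it was no longer called, and protein ID 140893 of GT2 changed by −2.63. Protein ID 104503 of AA3_2 changed by −2.4.

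Sugar transporters accompanied the enzymes. Of 30 listed members of the sugar porter family 23 rose, 5 fell and 2 were not called, with a median log2 fold change of 2.96, and together they took 2.83%, 3.02% and 2.59% of counts on low melanin necromass, against 0.136%, 0.243% and 0.273% on glucose. Protein ID 109243, described above, supplied most of that share. Protein ID 138519 had 1117, 1281 and 1001 CPM on low melanin necromass, against 11.6, 20.8 and 14 CPM on glucose and a log2 fold change of 6.19 (SE 0.26, edgeR adjusted p = 6.44e-08). Protein ID 91594 had 569.8, 534 and 573 CPM on low melanin necromass, against 1.91, 2.35 and 1.18 CPM on glucose and a change of 8.26, near the lowest ratio. The 5 that fell were more abundant on glucose, and protein ID 133544 was the highest of them, with 43.1, 50.7 and 42.9 CPM on low melanin necromass, against 662, 255 and 315 CPM on glucose and a log2 fold change of −3.17 (SE 0.33, edgeR adjusted p = 1.51e-05). Protein ID 76562 changed by −3.75 and protein ID 77618 by −2.43.

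Transporters of nitrogen compounds moved in both directions. Of 15 amino acid permeases 8 rose, 6 fell and 1 was not called. Every one that rose belongs to the APC family of amino acid and polyamine permeases. Protein ID 86271 was the most abundant of them, with 282, 267 and 309 CPM on low melanin necromass, against 1.42, 1.15 and 0.738 CPM on glucose and a log2 fold change of 8.0 (SE 0.21, edgeR adjusted p = 7.77e-09). The 3 listed members of the AAAP family all fell: protein ID 26543 had 29.5, 27.8 and 22.8 CPM on low melanin necromass, against 2272, 1007 and 1355 CPM on glucose, and protein ID 24454 had 7.62, 8.54 and 9.44 CPM on low melanin necromass, against 767, 912 and 834 CPM on glucose. Their log2 fold changes were −5.85 and −6.62 (edgeR adjusted p = 3.39e-07 and 5.37e-09), next to −8.29 for protein ID 104258. The other 3 that fell belong to the APC family, as do those that rose, and were named to complete the count. Protein ID 100875 changed by −3.72, or −4.74 without low melanin necromass replicate 3, and protein ID 32968 by −3.4. Protein ID 133603 changed by −2.38 with overlapping groups, and of the 6 fits that left out a library its call held only without glucose replicate 1, at −2.96, the others giving −2.69 to −1.93.

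Peptide transporters mostly rose, 5 of 6. Protein ID 94554 and protein ID 26687 belong to the oligopeptide transporter family and averaged 1084 ± 137 CPM on low melanin necromass and 13.1 ± 6.59 CPM on glucose and 916 ± 209 CPM on low melanin necromass and 14.9 ± 0.473 CPM on glucose (SD, n = 3 each). Their log2 fold changes were 6.38 and 5.94 (edgeR adjusted p = 1.03e-06 and 2.68e-08). Within the proton-coupled peptide transporter family, protein ID 26904 had 1652, 1231 and 2044 CPM on low melanin necromass, against 10.2, 219 and 309 CPM on glucose and protein ID 138633 had 4.89, 3.4 and 3.0 CPM on low melanin necromass, against 341, 474 and 557 CPM on glucose. These moved in opposite directions, by 3.2 and −6.93 on the log2 scale, the value of protein ID 26904 being 3.83 without glucose replicate 3.

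Anion:cation symporters and monocarboxylate porters, both of the major facilitator superfamily, moved in opposite directions. Of 11 anion:cation symporters, a family that carries organic anions and vitamins, 10 rose and 0 fell, with a median log2 fold change of 3.68, and protein ID 77945 was the most abundant, with 267, 237 and 263 CPM on low melanin necromass, against 6.76, 8.2 and 8.66 CPM on glucose and a change of 5.02. Protein IDs 90719 and 73108 rose by 6.82 and 2.63. Of 11 monocarboxylate porters 0 rose and 10 fell, with a median of −3.17, and without glucose replicate 1 the number that fell was 8. Protein ID 36469 dropped out of that number because it was no longer tested. The highest on glucose was protein ID 90357, with 18.6, 17.5 and 18.5 CPM on low melanin necromass, against 205, 320.5 and 503 CPM on glucose and a change of −4.24, and protein IDs 132334 and 90843 changed by −5.59 and −2.2. In the directions without a call, edgeR gave 0 members at an unadjusted p under 0.05, DESeq2 called 0, and 0 were called when any 1 library was left out.

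Among pumps and channels the directions differed by type. All 5 listed aquaporins, channels for water and glycerol, rose, by a log2 fold change of 2.40 to 5.59, and protein ID 92240 had 538, 476 and 601 CPM on low melanin necromass, against 37.3, 49.2 and 50 CPM on glucose. Protein IDs 102402 and 143256 rose by 5.59 and 2.62. Of 5 P-type ATPases 3 rose and 2 fell. The 3 that rose carry the enzyme tag of calcium-transporting ATPases, which by itself does not settle which ion they move. Protein ID 142734 had 1043, 868 and 1039 CPM on low melanin necromass, against 14.8, 19.9 and 26.9 CPM on glucose and a log2 fold change of 5.58 (SE 0.27, edgeR adjusted p = 1.42e-07), and protein IDs 139005 and 83372 rose by 4.45 and 6.2. Protein ID 108381, of the plasma membrane proton pump type, which energizes uptake across the membrane, had 259.7, 233 and 274 CPM on low melanin necromass, against 5566, 3800.4 and 4063 CPM on glucose and a log2 fold change of −4.13 (SE 0.2, edgeR adjusted p = 1.56e-07). Protein ID 77664, the other that fell, averaged 0.32 ± 0.193 CPM on low melanin necromass and 55.4 ± 23.3 CPM on glucose.

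ABC transporters and drug antiporters had members in both directions. Of 15 ABC transporters 4 rose, 7 fell and 4 were not called, and protein ID 97054 rose by 3.37, protein ID 126586 by 2.86 and protein ID 90048 by 6.75 (7.48 without glucose replicate 1). Protein ID 127668, of the drug conjugate type, had 12.4, 10.4 and 13.9 CPM on low melanin necromass, against 559, 809.9 and 619 CPM on glucose, and protein ID 25505 changed by −2.39. Of 18 drug:H+ antiporters 10 rose, 4 fell and 4 were not called. Protein ID 84853 rose by 2.12, or 2.0 without low melanin necromass replicate 2, where it was no longer called, and protein IDs 12422 and 132743 rose by 2.81 and 3.24. Protein IDs 26906, 5387 and 35694 changed by −3.54, −4.8 and −7.62.

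Iron uptake genes rose in 4 of 4 listed. Protein ID 23525, of the siderophore transporter family, had 1072, 1173 and 906 CPM on low melanin necromass, against 133, 300.4 and 300 CPM on glucose, a log2 fold change of 2.1 (SE 0.28, edgeR adjusted p = 9.85e-05), and 1.8 without glucose replicate 1, when the call was lost. The other 3 carry the tags of ferric reductases, which reduce iron at the cell surface. Protein ID 38144 had 232, 580.1 and 160.1 CPM on low melanin necromass, against 1.82, 1.51 and 0.787 CPM on glucose, in which low melanin necromass replicate 2 was the highest, and the log2 fold change was 7.87, or 7.14 without that replicate. Protein ID 142266 rose by 3.22.

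Amino acid synthesis genes fell in nearly every listed member. Of 31 listed genes 29 fell, 1 rose and 1 was not called, with a median log2 fold change of −2.74, and leaving out any 1 library gave 29 or 30 that fell. The members took 0.171%, 0.147% and 0.180% of counts on low melanin necromass, against 1.14%, 1.06% and 1.08% on glucose, so glucose replicate 1 was close to its group here. By pathway, 5 of 5 genes for lysine, 4 of 4 for arginine, 5 of 5 for threonine and methionine, 3 of 3 for the first aromatic step and 2 of 2 for histidine fell. Of 10 genes for branched-chain amino acids 8 fell and 1 rose, and the single genes for serine and proline fell.

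Protein ID 111054, annotated as homocitrate synthase, the entry to lysine synthesis in fungi, had 146, 124 and 163 CPM on low melanin necromass, against 981, 1253 and 1042 CPM on glucose. Protein ID 24008, argininosuccinate synthase, had 141, 128 and 159.5 CPM on low melanin necromass, against 930.5, 1129 and 798 CPM on glucose. Protein ID 103003, ketol-acid reductoisomerase of the branched-chain pathway, had 129.6, 117 and 145 CPM on low melanin necromass, against 817, 802 and 1149 CPM on glucose. Their log2 fold changes were −2.92, −2.74 and −2.82 (edgeR adjusted p = 2.06e-07, 4.18e-07 and 5.05e-07), and each gene was lower in every low melanin necromass library than in any glucose library. The 1 gene that rose, protein ID 96800, is annotated as dihydroxy-acid dehydratase, also of the branched-chain pathway, and had 191, 177 and 207 CPM on low melanin necromass, against 13.4, 15.6 and 20.4 CPM on glucose.

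**Figure D5:**
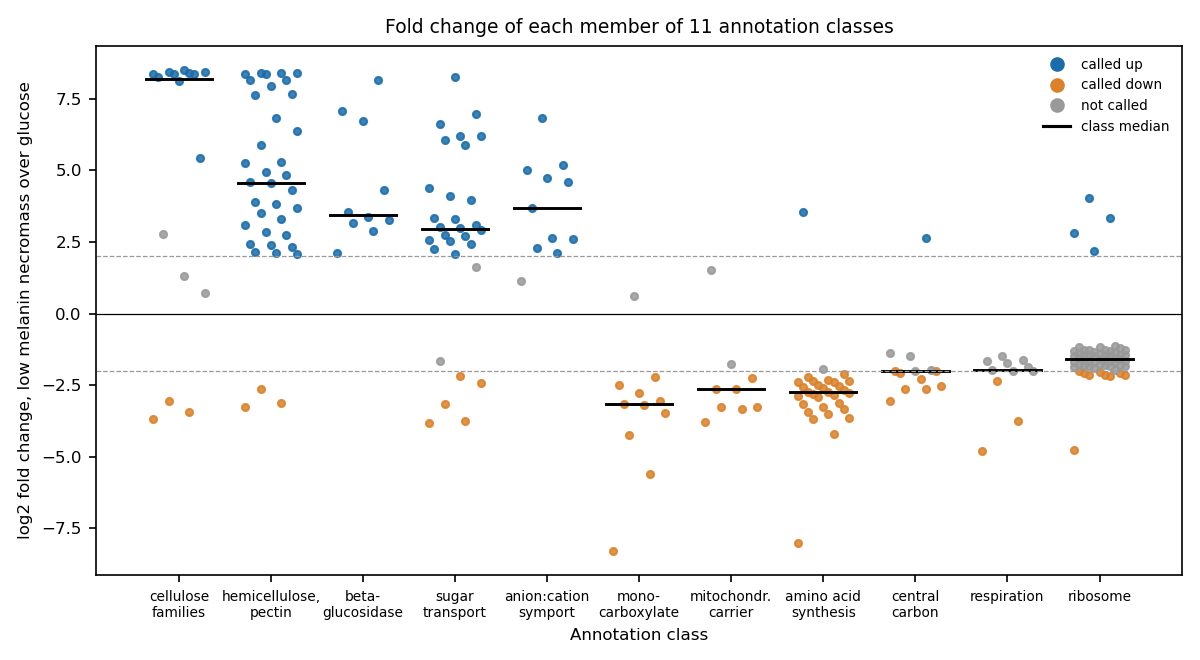
Log2 fold change of low melanin necromass over glucose for each listed member of 11 annotation classes, with the class median as a black bar and dashed lines at the fold threshold of 2 in either direction. Blue points were called up, orange points called down and grey points not called. Carbohydrate enzyme classes and sugar transport lie mostly above 0, amino acid synthesis lies below 0 except for 1 gene, and the ribosome class is bunched between 0 and the lower threshold.

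Most listed ribosomal genes did not pass the fold threshold. The 58 listed members had a median log2 fold change of −1.58, of which 45 were not called, 9 fell past the threshold and 4 rose, and glmTreat called 1 down. Without glucose replicate 1 the number that fell was 6, and the range over all libraries left out was 6 to 11. Members took 2.87%, 2.32% and 3.13% of counts on low melanin necromass, against 9.98%, 8.40% and 7.63% on glucose, and 31 of the 100 most abundant transcripts on glucose were of this class, against 4 of 100 on low melanin necromass. Protein ID 123771 had 644, 534 and 756 CPM on low melanin necromass, against 3069.7, 2935 and 2494 CPM on glucose, and protein ID 123319 had 622, 522 and 710.1 CPM on low melanin necromass, against 3111, 2875 and 2502 CPM on glucose. Their log2 fold changes of −2.14 and −2.19 were close to the threshold, and protein ID 95026, at −2.03, lost its call without glucose replicate 1 (−1.99), glucose replicate 2 (−1.97) or low melanin necromass replicate 2 (−1.95). The members that rose, among them protein IDs 11192, 10988 and 38429 at 2.8, 3.35 and 4.04, carry ribosome terms without a Pfam domain.

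Of 8 genes tagged as tRNA ligases, which load amino acids onto tRNA, 4 fell and 2 rose. Protein ID 140711, tagged as a histidine ligase, averaged 71.7 ± 7.25 CPM on low melanin necromass and 447 ± 40.2 CPM on glucose, and protein ID 87495, tagged as an isoleucine ligase, averaged 56 ± 2.26 CPM on low melanin necromass and 365 ± 35.3 CPM on glucose (SD, n = 3 each). Both fell, by a log2 fold change of −2.64 and −2.71. Protein ID 92483 changed by −4.86. The members that rose were protein ID 93343, tagged as an aspartate ligase, at 3.99 and at 4.7 without glucose replicate 3, and protein ID 82840, at 2.35, whose only domain tag is the carbohydrate-binding WSC domain.

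Several genes of central carbon metabolism and respiration fell. Of 13 listed genes of glycolysis, the citric acid cycle and related steps 8 fell, of which glmTreat called 3, while 1 rose and 4 were not called. Of 11 respiratory genes 3 fell and 8 were not called. Protein ID 138994, malate dehydrogenase, had 147, 154 and 179 CPM on low melanin necromass, against 1572, 1027 and 1419 CPM on glucose. Protein ID 92198, phosphoenolpyruvate carboxykinase, which opens the route from acids to sugars, had 209.7, 196 and 212 CPM on low melanin necromass, against 713, 1069 and 1184 CPM on glucose. Both fell without overlap, by −3.06 and −2.27 on the log2 scale (edgeR adjusted p = 4.18e-07 and 2.78e-06). Protein ID 141194, pyruvate decarboxylase, the branch point to ethanol, had 731, 438 and 705 CPM on low melanin necromass, against 809, 5704 and 5221 CPM on glucose, so glucose replicate 1 lay close to low melanin necromass, and the change was −2.65. The 1 gene that rose, protein ID 131902, is tagged as a transketolase and changed by 2.64.

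In respiration, protein ID 26219, with a cytochrome c domain, had 119, 91.4 and 138 CPM on low melanin necromass, against 1582, 1639 and 1526 CPM on glucose and a log2 fold change of −3.77 (SE 0.17, edgeR adjusted p = 1.1e-07). Protein ID 123040, an ATP synthase subunit C domain gene, had 105, 108 and 116 CPM on low melanin necromass, against 3857, 2595 and 2726 CPM on glucose and a change of −4.8 (SE 0.22, edgeR adjusted p = 1.02e-07). The other 9 members lay between −2.37 and −1.50, near the threshold, and DESeq2 or RLE factors called 6 of 11 down in place of 3, so their number depends on small shifts. Mitochondrial carriers, which pass metabolites across the inner membrane, followed: 7 of 9 fell, with a median of −2.64, and none was called up (0 by edgeR and by DESeq2, 1 higher at an unadjusted edgeR p under 0.05). Protein ID 99772 had 629, 627 and 704 CPM on low melanin necromass, against 4946, 3773 and 3529 CPM on glucose, and protein IDs 25316 and 137230 changed by −3.28 and −3.78.

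Of 6 genes of sterol synthesis 2 rose and 2 fell, so the class had no single direction. Protein ID 121962, annotated as a methylsterol oxidase of ergosterol synthesis, averaged 42.2 ± 20.2 CPM on low melanin necromass and 271 ± 147 CPM on glucose and changed by −2.68, and protein ID 79627, tagged as mevalonate kinase although its domain tag is BolA, changed by −2.21. Protein ID 133622, tagged as a sterol isomerase, rose by 2.65, and protein ID 72858, tagged as a sterol methyltransferase, by 4.76, or 5.4 without glucose replicate 2.

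Among regulators, 27 of 44 Zn2Cys6 transcription factors rose, 16 fell and 1 was not called, and glmTreat called 13 up and 8 down. This family of fungal zinc cluster proteins includes the activators of cellulase genes, but the annotation does not say which gene encodes them. Protein ID 98788 had 2066, 2729 and 1970.2 CPM on low melanin necromass, against 109, 187 and 180.2 CPM on glucose, protein ID 98455 had 1939, 2309.6 and 1786 CPM on low melanin necromass, against 60.9, 132 and 160.5 CPM on glucose, and protein ID 105117 had 1557, 2096 and 1237 CPM on low melanin necromass, against 28.5, 21.9 and 16.8 CPM on glucose. All of them lay among the 100 most abundant transcripts on low melanin necromass, with log2 fold changes of 3.83, 4.1 and 6.18 (edgeR adjusted p = 7.68e-07, 3.34e-06 and 1.26e-07). Protein ID 81999 was the highest on glucose among those that clearly fell, with a change of −2.39, and protein ID 99728 changed by −2.85. Protein ID 10530 changed by −2.01, at the threshold, and its call was lost without glucose replicate 1 (−1.85) and without low melanin necromass replicate 1 (−2.0) or 3 (−2.0). Without glucose replicate 1 the number of the family called down was 12 in place of 16.

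Of 15 protein kinases 10 rose, 4 fell and 1 was not called, and glmTreat called 4 up and 3 down. Protein ID 94542 had 430.3, 425 and 459 CPM on low melanin necromass, against 38.7, 64.2 and 54 CPM on glucose and a log2 fold change of 3.07 (SE 0.18, edgeR adjusted p = 4.33e-07). Protein IDs 35563 and 64897 rose by 2.08 and 2.08, values near the threshold that fell to 1.97 and 1.93 without glucose replicate 3, when both calls were lost. Protein ID 105536 had 56.6, 53.1 and 62.5 CPM on low melanin necromass, against 336, 651 and 551 CPM on glucose and a change of −3.16, and protein IDs 125942 and 50697 changed by −2.42 and −3.72.

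Peptidases moved in both directions, with 38 of 68 up, 22 down and 8 not called. Protein ID 111088, of the aminopeptidase family M28, had 317, 303 and 398 CPM on low melanin necromass, against 1.56, 1.62 and 2.17 CPM on glucose, and protein ID 141494, of the subtilisin family S08, had 298, 255 and 426 CPM on low melanin necromass, against 10.8, 22.4 and 24.9 CPM on glucose. Their log2 fold changes were 7.57 and 4.08 (edgeR adjusted p = 1.12e-08 and 3.25e-06), the aminopeptidase lying near the lowest ratio. Protein ID 8573, a carboxylesterase-type gene placed here by its S09 tag, rose by 4.43. Protein ID 124330, of family P01, had 59.1, 65.1 and 75.2 CPM on low melanin necromass, against 438, 1696 and 1149.6 CPM on glucose, and protein ID 77115, of family C56, changed by −3.37.

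Several small families of secondary and surface functions rose in most members, beside 1108 of all 2086 listed genes. Of the listed genes that were called, 62.7% were up. Of 23 cytochrome P450 genes 15 rose, 4 fell and 4 were not called. Protein ID 38294 had 570.0, 620.2 and 496 CPM on low melanin necromass, against 33.6, 50.6 and 42.3 CPM on glucose and a log2 fold change of 3.74 (SE 0.19, edgeR adjusted p = 1.86e-07). Protein ID 88726 changed by 2.63, or 3.23 without glucose replicate 2, protein ID 74379 by 2.39, protein ID 133274 by −4.19 and protein ID 78283 by −2.35, the last losing its call without glucose replicate 2 at −1.92. Of 9 polyketide and peptide synthetase genes, which assemble secondary metabolites, 6 rose and 1 fell. Protein ID 91563 had 174, 176 and 171 CPM on low melanin necromass, against 17.2, 16.6 and 15.1 CPM on glucose, and protein IDs 88360, 38585 and 77957 changed by 2.34, 2.56 and −4.21.

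Hydrophobins, small secreted proteins that coat fungal surfaces, rose in 4 of 5 listed genes. Protein ID 125486 had 1695, 1994 and 1344 CPM on low melanin necromass, against 11.9, 10.1 and 9.35 CPM on glucose and a log2 fold change of 7.33 (SE 0.23, edgeR adjusted p = 1.34e-08). Protein ID 125146 had 795, 1088 and 637 CPM on low melanin necromass, against 45.6, 6.32 and 5.46 CPM on glucose, so glucose replicate 1 lay above the other glucose libraries, and its change was 5.45, or 7.15 without that library. Protein ID 128762 rose by 2.69, and protein ID 73746 was at or under the floor on low melanin necromass, at least 10-fold lower. The hydrophobin that fell was no longer tested when any glucose library was left out.

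Catalases, which break down hydrogen peroxide, rose in 4 of 5. Protein ID 39633 had 64.8, 70.4 and 64.7 CPM on low melanin necromass, against 0.889, 1.62 and 0.886 CPM on glucose, and protein IDs 24060 and 13147 rose by 3.79 and 7.07. Protein ID 70058, the most abundant on glucose, had 68.3, 73.8 and 76.3 CPM on low melanin necromass, against 886, 332 and 274 CPM on glucose and a change of −2.77, or −2.07 without glucose replicate 1. Short-chain dehydrogenases were divided, with 17 of 39 up, 20 down (13 by glmTreat) and 2 not called, and without glucose replicate 1 the numbers were 16 and 16. Protein ID 75795 rose by 5.2, protein ID 43286 by 3.32 and protein ID 4616 by 2.2, and protein IDs 121678, 77308 and 104576 changed by −2.68, −7.7 and −2.1. The last of these lost its call without low melanin necromass replicate 2 (−1.92) or glucose replicate 3 (−1.89).

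Genes with ankyrin repeats, a motif for binding other proteins, rose in 24 of 31 listed, fell in 4 and were not called in 3. Protein ID 64887 had 51.6, 68.3 and 46.7 CPM on low melanin necromass, against 0.934, 1.93 and 1.43 CPM on glucose and a log2 fold change of 5.29 (SE 0.25, edgeR adjusted p = 1.15e-07). Protein IDs 97355 and 4572 rose by 2.27 and 2.19, and protein IDs 81639, 77440 and 141353 changed by −2.78, −4.22 and −2.23. Of 12 HET domain genes 8 rose and 3 fell. Protein ID 140865 had 62.6, 89.9 and 52.4 CPM on low melanin necromass, against 7.07, 6.74 and 6.15 CPM on glucose, and protein IDs 91306 and 10651 rose by 3.79 and 2.77. Protein ID 7829 changed by −4.06, whereas the calls of protein ID 115984, at −2.68, and of protein ID 88468, at −2.08, were lost without glucose replicate 1 at −1.18 and −1.96, and that of 88468 also without low melanin necromass replicate 2 at −1.95. Without glucose replicate 1 only 1 HET domain gene was called down.

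Most of the 2086 listed genes were of no described class. Their share of the calls was close to their share of the list. Of 605 listed genes without annotation 360 rose, 158 fell (83 by glmTreat) and 87 were not called. Of 834 with other annotation 417 rose, 299 fell and 118 were not called, and glmTreat called 259 up and 153 down. Among the most abundant without annotation, protein ID 108330 had 1086, 1293 and 1039 CPM on low melanin necromass, against 31.3, 31.8 and 34.4 CPM on glucose and a log2 fold change of 5.13 (SE 0.15, edgeR adjusted p = 1.25e-08). Protein ID 118629 had 3560.5, 4024 and 2806 CPM on low melanin necromass, against 78.2, 665 and 780.2 CPM on glucose, where glucose replicate 1 was the lowest, and changed by 2.77. Protein ID 125376 was called at 2.29, a call lost in 5 of the 6 fits that left out a library, with values of 1.72 to 2.42, and the value was 2.95 without glucose replicate 3. Protein ID 118732 had 509, 549 and 661 CPM on low melanin necromass, against 2869.9, 5151 and 4401 CPM on glucose and changed by −2.85.

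Among genes with other annotation, protein ID 5022 had 3799.7, 4396 and 3930.0 CPM on low melanin necromass, against 63.4, 93.3 and 58.8 CPM on glucose and protein ID 96157 had 1204, 1544 and 1129 CPM on low melanin necromass, against 23.2, 28.3 and 29.2 CPM on glucose, with log2 fold changes of 5.81 and 5.59. On the other side, protein ID 123899, with a ubiquitin domain, had 1052, 1066 and 1101 CPM on low melanin necromass, against 4862, 4834 and 4205 CPM on glucose, and protein ID 123189, with a core histone domain, had 708, 729 and 801 CPM on low melanin necromass, against 3051, 3358 and 2839 CPM on glucose. These 2 genes fell by 2.11 and 2.05 on the log2 scale, close to the threshold, and that of 123189 was −1.99 without glucose replicate 2, when it was no longer called. Protein ID 113200 had 318, 339.9 and 429.7 CPM on low melanin necromass, against 1846, 4562 and 4365 CPM on glucose and changed by −3.31.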

How the data were processed

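Messenger RNA from 9 cultures was read in paired ends. CHURP was used by the authors for trimming, and kallisto (version 0.48.0, per the submitters' processing notes, which also name DESeq2 version 1.42.0) for pseudoalignment to transcripts of this strain, with import through tximport. Estimated counts for each gene were deposited as whole numbers, which means that they had been rounded, and transcript lengths were not used here. kallisto divides reads shared by similar transcripts by estimation, so counts of close paralogs are uncertain. RNA from the necromass itself was not separated. The genome of RUT-C30 was not used here.

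A gene was tested if 3 or more of the 9 samples held 10 or more counts (9312 of 9849 genes, of which 27 had 0 counts throughout). The quasi-likelihood test of edgeR version 4.0.16 (R version 4.3.3) was fitted with TMM factors to every library, substrate being the factor, and the contrast was low melanin necromass minus glucose, with Benjamini-Hochberg adjustment over all genes tested. The common biological coefficient of variation was 0.193, with 3.43 prior degrees of freedom. Total counts of 18074631 to 22327638 put 3 counts, the floor, at 0.133 to 0.158 CPM, which covers counting error only. No libraries were duplicates, with a chi-square per degree of freedom of at least 11.7 between replicates. Tables and plots used Python version 3.11.15 with matplotlib version 3.10.9, and the fit was checked on simulated data.

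The comparison, the gene lists, the annotation classes and the tests were chosen with earlier results of these data known. Genes were named by rule: the 10 most abundant on each substrate, the 10 largest increases and decreases among called genes without overlap and with 10 counts in every library of the higher group, the 6 most abundant gained from and lost to near zero, and in each class outside the fungal wall the 3 highest called up and called down. A few others are named with the counts they belong to. Only gene IDs and annotation tags were taken from the study's list of called genes, which is shortened for the other comparisons, and none of its fold changes or p values was used. Alternatives were DESeq2, RLE and upper-quartile factors, library totals only, no filter, only the 2 substrates in the fit, glmTreat, a replicate block, other floors, and each library left out in turn.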

Additional observations from a re-analysis of the deposited data

How the results depend on the processing

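The numbers called were 1120 up and 669 down. Against a null boundary of a log2 fold change of 2 (glmTreat), 379 genes were called down and 765 up. Under every other alternative to the tool, scaling, filter, samples or pairing, both numbers stayed within 1.5 times, and with 1 library left out the range was 1080 to 1157 up and 614 to 695 down, with 6377 to 7249 genes past an adjusted p of 0.05. The median log2 fold change of all genes was −0.01 with RLE factors, 0.06 with upper-quartile factors and 0.01 with library totals, against 0.01 with TMM. Genes near zero depended on the floor and the filter. The 105 gained were 67 when only the 2 substrates were fitted, with 6 libraries left for the filter, 134 with no filter on low counts, 15 with a floor of 0 counts and 251 with a floor of 10. The 27 lost were 97 with no filter on low counts, 1 with a floor of 0 counts and 80 with a floor of 10. Leaving out 1 library gave 95 to 153 gained and 2 to 37 lost. Without glucose replicate 1, 2 or 3 the lost were 3, 2 and 2, because a gene at zero on necromass then has fewer than 3 libraries to pass the filter. The share of the 10 most abundant transcripts was 25.6% on low melanin necromass and 7.83% on glucose when ranked by the median, against 25.6% and 7.91% by the mean. Of 68 counts of members called up or down in a class, 23 fell by more than 1.5 times under glmTreat. Those called up were 13 of 27 for Zn2Cys6 factors, 4 of 10 for protein kinases, 5 of 8 for amino acid permeases and for HET domain genes, 3 of 6 for secondary metabolism, 1 of 2 for tRNA ligases and for sterol synthesis, 0 of 1 for central carbon and 259 of 417 for other annotation. Those called down were 8 of 16 for Zn2Cys6 factors, 1 of 9 for the ribosome, 3 of 8 for central carbon, 13 of 20 for short-chain dehydrogenases, 8 of 14 for the fungal wall, 3 of 5 for sugar transporters, 0 of 3 for hemicellulose and pectin, 2 of 4 for P450 and for ankyrin genes, 1 of 3 for HET domain genes, 0 of 2 for sterol synthesis, 0 of 1 for catalases, 153 of 299 for other annotation and 83 of 158 without annotation. Each other alternative moved at most 2 of the 68 by so much. Of 197 named genes, 41 lost their call under glmTreat, and 1 turned direction, protein ID 123565, whose log2 fold change ranged over −0.17 to 1.09 with 1 library left out and was −0.17 without glucose replicate 1.

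The replicate numbers were tried as pairs. The deviations of same-numbered libraries from their group means correlated at −0.018, −0.026 and −0.002. Those of unlike-numbered libraries correlated at −0.017 to 0.05. No pairing by number was detected, which does not show that the cultures were unpaired. With a replicate block 1134 genes were called up and 645 down, and 2 of the named genes, protein IDs 120413 and 10530, lost their call at −2.87 and −2.0.

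Depth limits the weakest genes most, since 3 counts lay at 0.133 to 0.158 CPM and changes below that level were not detectable. Each substrate had 3 cultures of 1 strain at 1 time, and the median SD of log2(CPM + 0.5) was 0.115 on low melanin necromass and 0.251 on glucose. Shares of counts depend on transcript length, and the annotation list holds only genes that the study called, so no enrichment was tested.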
